A study of Homo sapiens with 4 samples.

Results

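The clade B serpins are a family of mostly intracellular protease inhibitors. From this family 8 genes were taken here as a list: SERPINB1, SERPINB2, SERPINB3, SERPINB4, SERPINB5, SERPINB7, SERPINB8 and SERPINB13. The list was chosen with earlier results of these data known. Of these 8, 7 had a probe set that names that gene alone, out of 18417 genes with such a probe set, and each of the 7 had 1 such probe set. Expression of SERPINB2, the plasminogen activator inhibitor PAI-2, was not analysed here, and its promoter window was only searched for a motif.

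RNA came from MCF12A, an established line of human mammary epithelial cells that do not form tumours. The medium of all 4 cultures held 2.5% horse serum with insulin, cholera toxin, hydrocortisone and epidermal growth factor. Each of 4 cultures was read on 1 Affymetrix Human Gene 1.0 ST array. They were cells kept for 1 week in 25 mM ethanol with their unexposed control (control 1), and cells kept for 1 week in 2.5 mM acetaldehyde, the first oxidation product of ethanol, with their own unexposed control (control 2). With 1 array per arm no difference below has a replicate check or a p-value, and the number of arrays limits the precision. A single array also cannot tell fewer cells of a type from less RNA per cell.

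A serpin presents an exposed loop as bait. The protease cuts the loop and is trapped as the serpin folds onto it. Clade B serpins lack a classical secretion signal and are best known in stratified epithelia and leukocytes, where they restrain lysosomal cathepsins and granule proteases. SERPINB3 and SERPINB4, the squamous cell carcinoma antigens, SERPINB7 and SERPINB13 are known from keratinocytes. SERPINB5, or maspin, does not act as a classical inhibitor and is expressed by normal mammary epithelium.

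All 10 clade B genes of chromosome 18 lie next to each other in the RefSeq order, with 1 other protein-coding gene among them, and 7 of them are on the list. SERPINB1 is on chromosome 6. SERPINB3 and SERPINB4 are close copies, so probes for one can bind the transcript of the other and the split between them is uncertain. Their promoter windows, from 250 bases before to 50 bases after the start site, are shown because they share 296 of 300 bases, with the 4 differing bases in capitals (RefSeq, GRCh38.p14, minus strand, chr18:63661844-63662143 and chr18:63644207-63644506).
SERPINB3: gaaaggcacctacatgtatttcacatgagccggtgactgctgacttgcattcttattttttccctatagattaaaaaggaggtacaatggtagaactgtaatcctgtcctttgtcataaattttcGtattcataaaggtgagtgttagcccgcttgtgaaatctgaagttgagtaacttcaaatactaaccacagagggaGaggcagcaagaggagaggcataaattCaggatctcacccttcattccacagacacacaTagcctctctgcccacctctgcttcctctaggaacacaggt
SERPINB4: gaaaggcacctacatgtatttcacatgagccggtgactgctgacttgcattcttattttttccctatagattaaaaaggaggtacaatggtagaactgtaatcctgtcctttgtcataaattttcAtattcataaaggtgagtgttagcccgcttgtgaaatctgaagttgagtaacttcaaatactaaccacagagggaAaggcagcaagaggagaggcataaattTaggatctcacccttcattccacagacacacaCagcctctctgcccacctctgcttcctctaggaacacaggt

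The other member windows were searched for TGANTCA, a loose form of the AP-1 core TGACTCA or TGAGTCA. This motif was chosen with the sequences in view. It reads the same on both strands. Windows of SERPINB13, SERPINB7 and SERPINB8 with the form TGACTCA or TGAGTCA are shown with the motif in capitals, all on the plus strand of GRCh38.p14. They lie at chr18:63587236-63587282 for SERPINB13, at chr18:63775359-63775405 and chr18:63777716-63777762 for 2 of the 3 listed starts of SERPINB7, and at chr18:63970033-63970079 for SERPINB8.
SERPINB13: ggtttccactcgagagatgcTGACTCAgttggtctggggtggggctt
SERPINB7, first of these starts: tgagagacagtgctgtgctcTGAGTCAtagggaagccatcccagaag
SERPINB7, second of these starts: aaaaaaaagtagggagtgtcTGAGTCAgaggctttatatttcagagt
SERPINB8: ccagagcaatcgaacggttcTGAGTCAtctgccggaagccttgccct

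In these windows the motif began 87 bases upstream of the start in SERPINB13, 39 and 45 bases upstream in SERPINB7 and 28 bases upstream in SERPINB8. Over all 8 genes, 6 of 10 windows, from 5 genes, held TGANTCA, against 7.71% of 35116 human promoter windows of the same length. Member windows were poorer in G and C, with a median of 43.3% against 58.7%, and 7 of the 10 were under 50% GC. Among all windows under 50% GC the share with TGANTCA was 13.5%. The form TGACTCA or TGAGTCA was in 4 of 10 member windows, against 4.95% of all windows and 7.78% of those under 50% GC. As the motif was chosen with these sequences in view, these shares are no test of an excess. SERPINB1, SERPINB3 and SERPINB4 had no match to TGANTCA.

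After 1 week in ethanol the serpins divided into groups of 4 and 3. SERPINB3, SERPINB7 and SERPINB13 were each more than 10-fold lower than in control 1 and SERPINB4 was 2.48-fold lower, whereas SERPINB1, SERPINB5 and SERPINB8 stayed within 0.28 log2 units of control 1. Of the 7 members with a value, 4 were at least 2-fold lower, against 1.41% of all 18417 named genes, and 0 were at least 2-fold higher, against 0.782%. Of the 6 members bright enough to be kept, 3 were at least 2-fold lower, against 2.11% of the 10373 kept genes. SERPINB7, 1 of these 3, was kept through control 1 alone. Of the 4 clade B serpins with a value that are not on the list, 0 were at least 2-fold lower, and 0 were bright enough to be kept. All 7 members were below control 1 by some amount, against 52.2% of named genes. By at least 2-fold and also below control 2, this held for SERPINB3, SERPINB4 and SERPINB13, 3 of 7 against 0.988% of named genes. Control 2 itself differed from control 1 by 2-fold or more in 4 of the 7, which bears on every ethanol value below.

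SERPINB3 is an inhibitor of papain-like cathepsins (probe set 8023696). Its intensity was 211 in the ethanol culture against 2243 in control 1, and 856 in the acetaldehyde culture against 754 in control 2. Its ethanol value was the lowest of the 4 arrays and its control 1 value the highest. The log2 difference was -3.41 with ethanol, 10.6-fold lower, and only 16 of the 18417 named genes were lower still. With acetaldehyde it was 0.18, so SERPINB3 lay slightly above its control.

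SERPINB13, also called headpin or hurpin, an inhibitor of cathepsins L and K, measured 226 with ethanol against 2348 in control 1 (probe set 8021603). It had 301 with acetaldehyde against 645 in control 2. Both exposed arrays lay below both controls. SERPINB13 was 10.4-fold lower with ethanol (log2 difference -3.38) and 2.15-fold lower with acetaldehyde (-1.10). Only 11 named genes were lower still with acetaldehyde.

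SERPINB7, or megsin, whose loss in humans causes a palmoplantar keratosis, measured 83.4 with ethanol against 868 in control 1 (probe set 8021623). It had 31.5 with acetaldehyde against 41.3 in control 2. Control 1 was thus high and the other 3 arrays were dim. The ethanol difference was -3.38, or 10.4-fold lower, but the ethanol value lay between the controls, 1.02 log2 units above control 2. The acetaldehyde difference of -0.39 was between values below the lower quartile of their arrays, 42.3 with acetaldehyde and 41.9 in control 2.

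SERPINB4, which inhibits cathepsin G and chymase, was dim on all arrays, at 54.0 with ethanol against 134 in control 1 and 65.6 with acetaldehyde against 97.0 in control 2 (probe set 8023688). It stayed below the filter intensity of 155, the median of all gene-naming values, and is the member with a value that did not pass this filter. Both exposed arrays lay below both controls, with log2 differences of -1.31 for ethanol and -0.56 for acetaldehyde. The difference for SERPINB4 was smaller than for SERPINB3 with ethanol, and the 2 probe sets pointed in opposite directions with acetaldehyde.

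**Figure D1:**
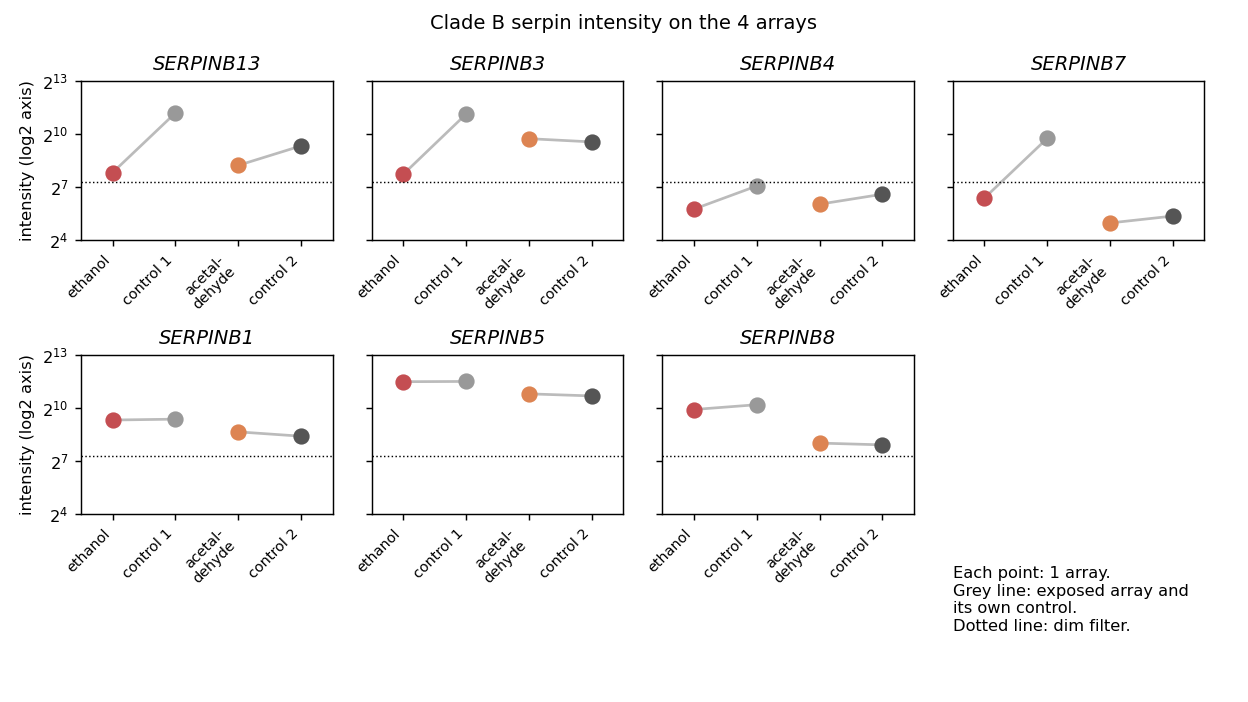
Intensity of the 7 measured clade B serpins (log2 axis) on the ethanol, control 1, acetaldehyde and control 2 arrays, 1 point per array, with a grey line joining each exposed array to its own control. SERPINB13, SERPINB3, SERPINB4 and SERPINB7 are lower with ethanol than in control 1, SERPINB1, SERPINB5 and SERPINB8 are nearly level within each pair, and control 2 is below control 1 for all 7. The dotted line is the filter intensity of 155.

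SERPINB5 measured 2859 with ethanol against 2886 in control 1, and 1776 with acetaldehyde against 1637 in control 2 (probe set 8021584). Its log2 differences were -0.0135 and 0.12. SERPINB1, an inhibitor of neutrophil elastase, cathepsin G and proteinase 3, had 636 with ethanol against 659 in control 1, and 400 with acetaldehyde against 338 in control 2 (probe set 8123598). Its differences were -0.05 and 0.25. For both genes the 2 arrays of an experiment lay closer to each other than to either array of the other experiment.

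SERPINB8, known as an inhibitor of the proprotein convertase furin, measured 961 with ethanol against 1160 in control 1, and 258 with acetaldehyde against 240 in control 2 (probe set 8021653). Its differences of -0.27 and 0.10 were small beside the gap between the controls. With acetaldehyde, 1 of the 7 measured members, SERPINB13, was at least 2-fold lower, against 0.179% of all named genes. It was 1 of the 6 kept members, against 0.212% of kept genes. SERPINB13 was also below both controls, against 0.130% of named genes. Of the 7, 3 were below control 2 by some amount, against 54.7%. None was at least 2-fold higher, against 0.0814%.

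Ethanol and acetaldehyde differences share no array and can be set side by side, although the doses differ. SERPINB3 showed the widest gap, at -3.41 and 0.18, followed by SERPINB7 (-3.38 and -0.39) and SERPINB13 (-3.38 and -1.10). The controls of SERPINB7 were far apart, at 868 in control 1 and 41.3 in control 2. The control 2 value was below the lower quartile of its array (41.9), so a fall with acetaldehyde could hardly be read. SERPINB13 and SERPINB4 were the members lower than their own control and below both controls under both exposures. Over the 7 members the median difference was -1.31 with ethanol, against -0.0133 over all named genes, and 0.10 with acetaldehyde, against -0.0228.

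**Figure D2:**
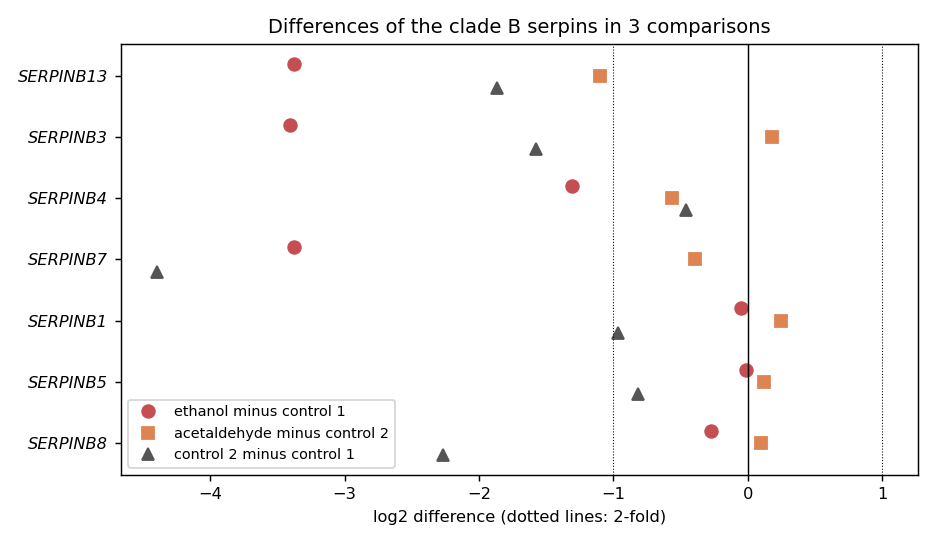
Log2 difference of each measured clade B serpin for ethanol minus control 1 (circles), acetaldehyde minus control 2 (squares) and control 2 minus control 1 (triangles), with 1 array on each side of a difference and dotted lines at 2-fold. SERPINB13 is the gene with the acetaldehyde square past the left dotted line, and all 7 triangles lie left of 0.

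The unexposed cultures also differed from each other. All 7 measured members were lower in control 2 than in control 1, against 33.0% of all named genes. By at least 2-fold this held for SERPINB7 (21.0-fold, log2 difference -4.40), SERPINB8 (4.83-fold, -2.27), SERPINB13 (3.64-fold, -1.86) and SERPINB3 (2.98-fold, -1.57). These were 4 of 7 members, against 2.98% of all named genes. They were also 4 of the 6 kept members, against 4.85% of kept genes, and SERPINB7 was kept through control 1 alone. Of the 7, none was at least 2-fold higher, against 5.36% of named genes. SERPINB1 (-0.96), SERPINB5 (-0.82) and SERPINB4 (-0.46) differed less. The median over the 7 was -1.57, against 0.22 over all named genes.

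The ethanol and control comparisons share control 1, so any error of this single array enters both. All 7 members were below control 1 in both comparisons, with sizes that differed for SERPINB8 and SERPINB3. The part of control 1 in these values was not tested. SERPINB8 was 4.83-fold lower in control 2 and 1.21-fold lower with ethanol, and SERPINB3 was 2.98-fold lower in control 2 and 10.6-fold lower with ethanol. The 2 experiments also appear to have been normalized apart. The sorted values of the arrays differed by a mean of 0.0398 and 0.0268 log2 units within the pairs, against 0.27 to 0.28 between arrays of different pairs. Median intensity over 33297 probe sets was 90.2 with ethanol and 92.2 in control 1, against 113 with acetaldehyde and 114 in control 2.

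**Figure D3:**
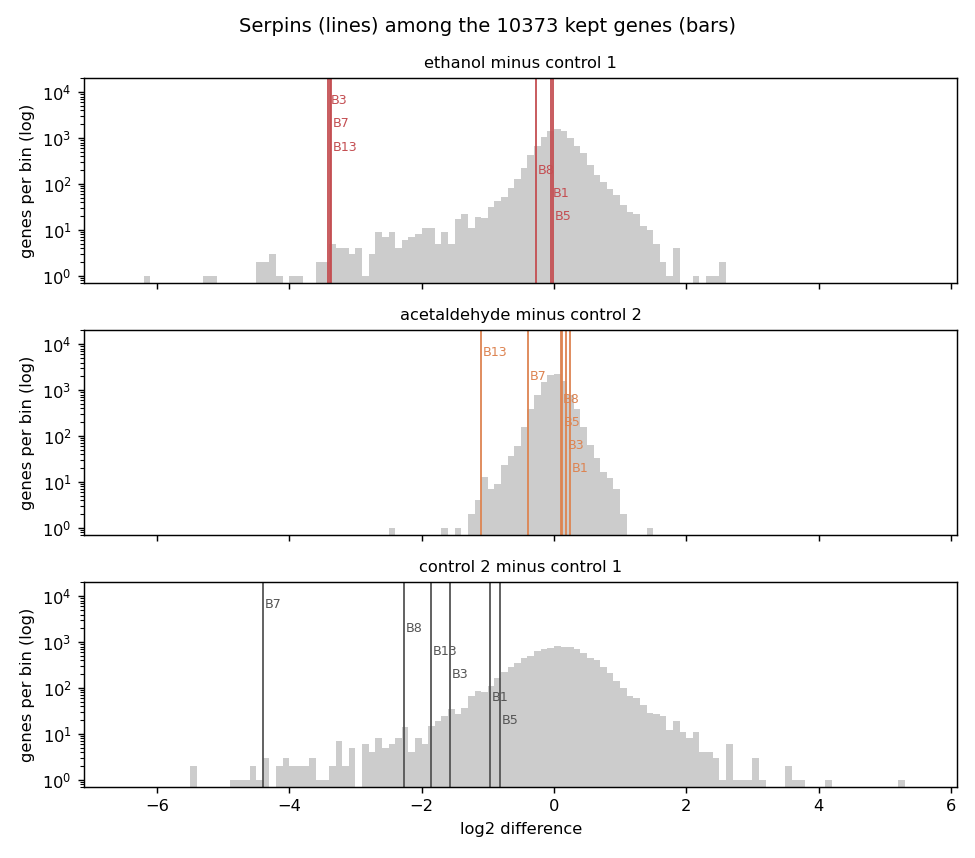
Number of kept genes (bars, log axis) by log2 difference in each of the 3 comparisons, with lines for the 6 serpins that passed the dim filter. SERPINB3, SERPINB7 and SERPINB13 lie together at about -3.4 with ethanol, acetaldehyde differences span a narrower range, and the 6 lines are spread from -4.40 to -0.82 between the controls.

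Along chromosome 18 the order is SERPINB5, SERPINB12, SERPINB13, SERPINB4, SERPINB3, SERPINB11, SERPINB7, SERPINB2, SERPINB10 and SERPINB8. The 4 members that were at least 2-fold lower with ethanol followed each other among the measured members, from SERPINB13 to SERPINB7, and the 2 near their control, SERPINB5 and SERPINB8, stood at the ends. This order holds against control 1. With ethanol SERPINB7 was 1.02 log2 units above control 2, and SERPINB8 was 4.83-fold lower in control 2 than in control 1. The probes of the neighbours SERPINB3 and SERPINB4 may also bind each other's transcripts. Of the genes between SERPINB5 and SERPINB8, SERPINB12, SERPINB11 and SERPINB10 were dim on all arrays, with intensities from 8.87 to 37.6, and were within 0.08 log2 units of control 1 with ethanol. Their values were below the lower quartile of each array, 29.7 with ethanol and 29.9 in control 1, against 42.3 with acetaldehyde and 41.9 in control 2. SERPINB9, a granzyme B inhibitor next to SERPINB1 on chromosome 6, was also below the filter, at 57.2 with ethanol against 71.6 in control 1 and 86.7 with acetaldehyde against 92.8 in control 2.

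**Figure D4:**
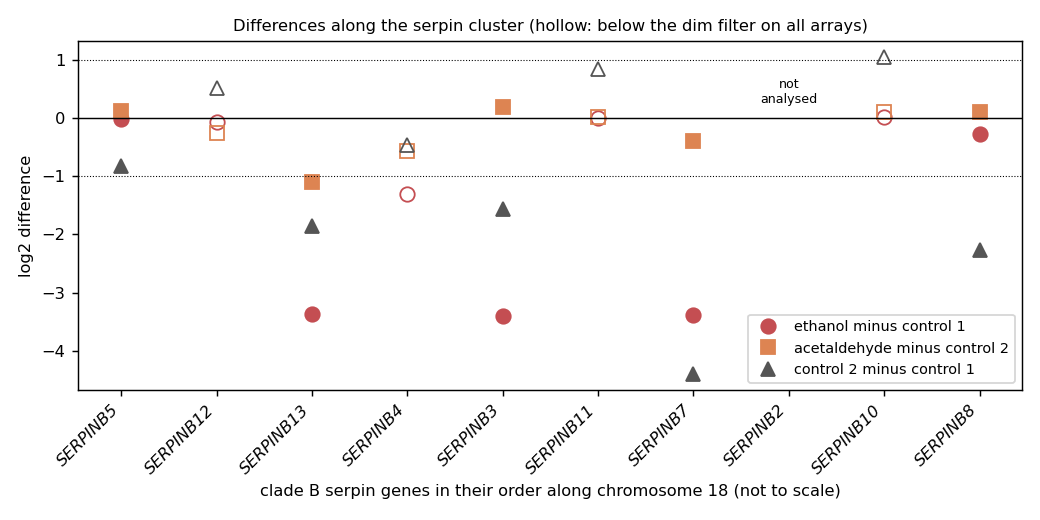
Log2 difference of the clade B serpin genes in their order along chromosome 18 (spacing not to scale) for the 3 comparisons, with 1 array on each side. Filled symbols are genes that reached an intensity of 155 on at least 1 array, hollow ones stayed below it. Ethanol circles are low from SERPINB13 to SERPINB7, apart from SERPINB11, and near 0 at both ends.

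Genes with the profile most like the leading members were found by the smallest Euclidean distance over the 3 log2 differences among the 10373 kept genes. For SERPINB3, the member furthest from control 1 with ethanol, they were KRTDAP, a keratinocyte differentiation-associated protein (distance 0.81), the zinc transporter SLC39A2 (0.81) and BNIPL (0.86). KRTDAP had differences of -3.36 with ethanol, -0.36 with acetaldehyde and -2.16 between controls. For SERPINB13, the member furthest from control 2 with acetaldehyde, they were the epithelial ETS factor EHF (0.42), the cornified envelope transglutaminase TGM1 (0.75) and KRTDAP (0.80). EHF had differences of -3.28, -0.69 and -1.85 in the same order, and TGM1 of -2.96, -0.99 and -2.48. These distances rest on 3 differences from 4 arrays, of which 2 share control 1. KRTDAP, SLC39A2 and BNIPL reached the filter intensity in control 1 alone (415, 158 and 360), so their likeness rests on that array being high.

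The squamous differentiation list, 19 genes of the cornified envelope, keratins and associated proteins that are not serpins, counted 15 of 19 genes lower by 2-fold or more in the ethanol culture, against 1.41% of named genes, with a median of -2.68. The serpins SERPINB3, SERPINB7 and SERPINB13 lay below that median and the other 4 above it. SPRR3 (-6.16), SPRR1A (-5.11) and SPRR1B (-4.40) had larger negative differences than any measured member. With acetaldehyde 7 of 19 were at least 2-fold lower, against 0.179%, led by KRT10 (-2.44) and KRT16 (-1.24). In control 2, 10 of 19 were at least 2-fold lower than in control 1, against 2.98%, and 2 were at least 2-fold higher, against 5.36%.

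Proteases that clade B serpins are known to meet were described from lists. Of 10 cysteine cathepsins 1 was at least 2-fold lower with ethanol, against 1.41% of named genes. This was CTSV, the cathepsin of squamous epithelium and thymus, at -1.16, measuring 316 in the ethanol culture against 704 in control 1. It differed by -0.07 with acetaldehyde and by -2.66 between the controls. CTSZ (0.69), CTSB (0.67) and CTSL (0.49) were above control 1, and CTSL (0.21) and CTSC (-0.47) had the largest acetaldehyde differences. CTSL, bound by SERPINB3 and SERPINB13, had 1164 with ethanol against 828 in control 1, opposite in direction to both inhibitors, and for CTSK (-0.25) and CTSS (0.07) the difference was between dim values.

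Of 9 serine proteases of leukocytes, 0 were 2-fold apart under either exposure. Among all named genes, 1.41% were at least 2-fold lower and 0.782% higher with ethanol. With acetaldehyde the shares were 0.179% and 0.0814%, so a count of 0 in so short a list is near these shares. GZMM (-0.36), ELANE (-0.23) and AZU1 (-0.175) had the largest ethanol differences among those kept. AZU1 (-0.18) and PRTN3 (-0.16) had the largest with acetaldehyde. The targets of SERPINB1, ELANE (-0.23), PRTN3 (-0.10) and CTSG (0.02), were within 0.23 log2 units of control 1 with ethanol. Of the plasminogen activation list 7 of 8 genes had a value and 0 were 2-fold apart under either exposure, again near the shares over all named genes. The urokinase receptor PLAUR (0.98), the protease inhibitor SERPINE2 (0.78) and urokinase PLAU (0.77) were above control 1 with ethanol. PLAU (0.41) and PLAT (-0.38) differed most with acetaldehyde. All 3 genes PLAUR (-1.52), PLAU (-1.25) and SERPINE2 (-1.19) were lower in control 2 than in control 1.

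Serpins of other clades, mostly secreted proteins, were read from the same arrays. Of 12 with a value, 0 were lower by 2-fold or more with ethanol, against 1.41% of named genes, and 1 was higher, against 0.782%. This was SERPINA1, the antitrypsin gene, at 2.20. It had 1371 with ethanol against 298 in control 1. SERPINE2 (0.78) and the collagen chaperone SERPINH1 (0.71) followed, and SERPINA3 had the largest acetaldehyde difference, at -0.79, with 3.14 between the controls. SERPINA1 was at -0.02 with acetaldehyde.

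The labelled cell type was checked against markers. All 6 mammary epithelial markers with a value, KRT5, KRT14, KRT8, KRT18, EPCAM and CDH1, were above the filter on all arrays. Their summed intensity was 25636 with ethanol and 25364 in control 1, against 17747 with acetaldehyde and 19865 in control 2. The sum hides opposite differences, since with ethanol KRT14 (-0.66) and CDH1 (-0.32) were below control 1 and KRT8 (0.75), EPCAM (0.70) and KRT18 (0.63) above it. With acetaldehyde KRT14 was at -0.95. Of 13 leukocyte, endothelial, fibroblast and adipocyte markers with a value, 2 passed the filter, CD14 and COL1A1. CD14 measured 287 with ethanol against 189 in control 1, and 183 with acetaldehyde against 279 in control 2, whereas the leukocyte marker PTPRC was at 10.3 to 15.9. Summed over each list, the arrays ranged from 251 to 370 for leukocyte, 157 to 199 for endothelial, 314 to 575 for fibroblast and 150 to 206 for adipocyte markers. The part of these marker levels in the serpin values was not tested.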

How the data were processed

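The 4 arrays were grouped by their labels, 1 array in each group. The authors deposited RMA intensity values on a linear scale, per the submitters' processing notes and the values themselves. RMA corrects background, normalizes and summarises probes, and the software that ran it is not named in the sources used here. The planned differences took log2 values, so log2 of the deposited intensity was taken with no offset. Of 33297 probe sets, 19460 named 1 gene, 1754 several and 12083 none, and the first kind was used, with the highest mean probe set per gene. Genes whose highest value reached log2 7.28 (intensity 155) on any array were kept, 10373 of 18417. A member can pass this filter through 1 array alone, as SERPINB7 did, so counts are also given over all named genes.

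Differences are log2 exposed minus own control, with no test, since each group has 1 array. Genes were named as all members, plus the largest differences in each list and the nearest profiles. CTSK, CTSS, CTSG, ELANE and PRTN3 were also named as known targets, after their values were seen. Of these, ELANE and PRTN3 are also among the largest differences in their list. Members and lists were chosen with earlier results of these data known. The 2-fold calls were checked on simulated data with planted changes and no noise, and that simulation covered only this step. Sequences are from RefSeq (GRCh38.p14). Python 3.11.15, pandas 2.3.3 and matplotlib 3.10.9 were used. Alternatives were an offset of 16, joint quantile normalization, centring, the mean of probe sets, no filter, a 1.5-fold threshold, and other controls.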

Additional observations from a re-analysis of the deposited data

Results flagged for a closer look

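4 members lay below their control with ethanol and above it with acetaldehyde, on 1 array each, and the difference between the responses was not tested. SERPINB3 was at -3.41 with ethanol and 0.18 with acetaldehyde, a gap of -3.59. SERPINB1 (-0.05 and 0.25), SERPINB5 (-0.0135 and 0.12) and SERPINB8 (-0.27 and 0.10) differed in sign by less than 0.38 log2 units.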

How the results depend on the processing

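Among the 6 members that passed the filter, 3 were at least 2-fold lower with ethanol (2.11% of kept genes). The counts were 1 with acetaldehyde (0.212%) and 4 in control 2 (4.85%), and medians were -1.82, 0.11 and -1.72. SERPINB7 is among the 3 and the 4 and enters these medians. The ethanol median of -1.82 falls in the gap between SERPINB13 (-3.38) and SERPINB8 (-0.27), where no kept member lies. It thus depends on SERPINB7 being kept. With no filter the ethanol median over 7 members was -1.31. SERPINB7 passed the filter through control 1 alone (868), and any gene kept in this way lies below control 1. The filter decided whether it was counted as kept, not its ethanol difference of -3.38. Between the controls, centring gave 6 of 6 members at least 2-fold lower in control 2, beside 1026 of 10373 kept genes, and a median of -2.02. A 1.5-fold threshold also counted 6, beside 1340 kept genes. With the other experiment's control, the ethanol median turned to 0.86 and SERPINB7 turned to 1.02. With ethanol 2 members were then at least 2-fold higher, beside 511 kept genes, and 2 lower, beside 400. The acetaldehyde median moved to -1.78, with 4 members at least 2-fold lower, beside 519 kept genes, and 0 higher, beside 479. With the mean of both controls, the ethanol median was -0.39. With acetaldehyde 3 members were then at least 2-fold lower, beside 169 kept genes, and 0 higher, beside 84. The ethanol differences of SERPINB3 and SERPINB13 kept their sign under every alternative, from -3.41 to -1.84 and from -3.38 to -1.51. That of SERPINB4 also did, from -1.31 to -0.84. With acetaldehyde SERPINB13 (-2.965 to -1.06), SERPINB4 (-1.03 to -0.47) and SERPINB7 (-4.79 to -0.27) kept theirs. Of 28 member differences against other controls 15 changed sign. Of 63 under the offset, joint quantile normalization or centring 1 did, SERPINB5 with ethanol under centring (0.0188). Averaging probe sets could change no member, as each has 1. Centring also turned the kept genes 2-fold apart between controls to 1026 lower and 206 higher in control 2, against 503 and 441. SERPINB4, and SERPINB7 outside control 1, are limited by signal near background. No paired analysis was possible because each group has 1 array.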
